A study of Mus musculus with 6 samples.

Results

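Adipogenic regulators and lipid handling genes were examined in skeletal muscle fibroblasts under D-gal treatment, as a set of 9 genes matched by symbol: Pparg, Cebpa, Cebpd, Zfp423, Fabp4, Cd36, Lpl, Plin2 and Adipoq. All 9 were found among the 34745 genes of the deposited table. Of these, 8 had a count above 0 in some library and 7 had enough counts to be tested among the 13407 genes that passed the filter on low counts. The question was whether genes of the fat cell program differ between fibroblasts incubated with D-gal and their controls.

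NOR-10 is an established mouse line of skeletal muscle fibroblasts. The D-gal group was incubated with D-galactose at 20 mg/mL for 3 days to induce cellular senescence, and the control group received the same amount of PBS, with n = 3 libraries in each group. Both groups consist of the same cells with no other agent or genetic change given, so the libraries describe a culture model of 1 cell line. Nothing in the sources used here says whether replicates came from separate cultures, so the p-values measure the spread between these libraries, which may be technical.

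The conversion of a fibroblast-like precursor into a fat cell is driven by a cascade of transcription factors. Cebpb and Cebpd act early and switch on Pparg and Cebpa, which maintain each other and turn on genes for the uptake, binding and storage of fatty acids, while Zfp423 marks cells committed to this fate. In skeletal muscle, fibro-adipogenic progenitors can become either matrix-producing fibroblasts or fat cells, and fat and scar tissue often accumulate together in old muscle.

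Promoter sequences were searched for 2 cores that factors of this cascade are known to read, AGGTCA and TTGCNNAA, and for general promoter elements. RefSeq windows (GRCm38.p6) were at hand for 6 of the 9 genes, with 9 start sites in all. Of these, 4 are shown, each as the 250 bases before a start, 5′ to 3′ on the strand of the gene: a pair for the central regulators, 1 for the lipid droplet gene Plin2 and 1 for Adipoq, the defining product of fat cells. The Pparg window lies before the most downstream of its 3 listed starts, inside the gene. Capitals mark every match, on either strand, to AGGTCA (the core read by nuclear receptors), TTGCNNAA (a C/EBP core), CCAAT (a general promoter element), TATAAA (the TATA box) or GGGCGG (the GC box), and no match in the 4 windows overlapped another.
Pparg, chr6:115421816-115422065 (plus strand): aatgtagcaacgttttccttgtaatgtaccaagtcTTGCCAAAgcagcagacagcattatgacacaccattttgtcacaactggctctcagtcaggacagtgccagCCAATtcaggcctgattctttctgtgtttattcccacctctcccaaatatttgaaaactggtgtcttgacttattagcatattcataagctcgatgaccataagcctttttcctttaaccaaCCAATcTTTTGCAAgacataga
Cebpa, chr7:35119043-35119292 (plus strand): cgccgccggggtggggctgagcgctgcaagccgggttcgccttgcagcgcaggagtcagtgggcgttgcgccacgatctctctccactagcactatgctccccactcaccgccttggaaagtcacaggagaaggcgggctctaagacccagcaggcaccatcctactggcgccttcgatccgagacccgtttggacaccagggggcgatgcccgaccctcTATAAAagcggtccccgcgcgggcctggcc
Plin2, chr4:86670060-86670309 (minus strand): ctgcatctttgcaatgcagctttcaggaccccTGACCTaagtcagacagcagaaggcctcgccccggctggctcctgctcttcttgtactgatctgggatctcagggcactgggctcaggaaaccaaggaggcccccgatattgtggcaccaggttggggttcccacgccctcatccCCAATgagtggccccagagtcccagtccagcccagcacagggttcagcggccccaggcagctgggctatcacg
Adipoq, chr16:23146286-23146535 (plus strand): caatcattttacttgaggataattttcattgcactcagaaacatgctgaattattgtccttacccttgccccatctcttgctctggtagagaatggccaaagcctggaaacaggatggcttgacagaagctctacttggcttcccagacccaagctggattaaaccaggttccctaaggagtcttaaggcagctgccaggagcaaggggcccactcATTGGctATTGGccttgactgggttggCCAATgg

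The Pparg window held 2 C/EBP cores, at positions -215 to -208 and -16 to -9 from the start, and 2 CCAAT boxes. The windows of the other Pparg starts held no C/EBP core, and each held AGGTCA and at least 1 GC box. A C/EBP core was present in 9.56% of the 32851 RefSeq promoter windows of this length. The Cebpa window held a single match, a TATA box at -30 to -25, a motif found in 12.4% of windows. The Plin2 window held AGGTCA on the reverse strand at -218 to -213, present in 14.0% of windows, and a CCAAT box. The Adipoq window held 3 CCAAT boxes within the last 34 bases, and 33.8% of windows held at least 1. The GC box, present in 32.7% of all windows, was absent from these 4 and present in each of the other 5 windows of the set, and the 4 were picked with the matches known. These matches describe letters in the windows and not binding.

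Total counts per library lay between 16876087 and 20830349 in the control group and between 13759108 and 15157064 in the D-gal group. Normalized counts below are counts brought to a common library size with edgeR's TMM factors. Mitochondrial genes held 4.26% to 4.44% of counts in control and 4.87% to 4.98% in D-gal libraries, and their part in the results was not tested. The cells carried the fibroblast label in their transcripts: Col1a1, Col1a2, Fn1 and Pdgfra each had at least 8307 counts in every library, although Lum had 1 count in all and Fap 18. Of 14 fibroblast markers, 12 were tested in edgeR. At an adjusted p under 0.05, 9 were lower and 1 (Pdgfrb) was higher in D-gal. Of all 13407 genes tested, 17.8% were lower and 16.9% higher at this threshold. The summed normalized counts of the 14 markers were 256103 to 260790 in control and 140874 to 151539 in D-gal. In such bulk libraries, fewer cells of a type and less RNA per cell cannot be told apart. Of 10 adipocyte markers, Adipoq, Cidec, Lep and Cfd had 0 counts in all 6 libraries and Plin1 had 1. The summed normalized counts of this list were 446 to 518 in control and 369 to 396 in D-gal, nearly all of them from Plin4 and Lipe. Of 12 myogenic markers, 5 had 0 counts throughout, among them the satellite cell and myoblast genes Pax7, Myf5 and Myod1. Of 10 endothelial markers, 2 were at 0 throughout, Cldn5 and Gpihbp1. Other markers of both lists had counts, with list sums of 131 to 133 (myogenic) and 132 to 150 (endothelial) normalized counts in control.

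Control replicate 1 stood apart in macrophage markers. The summed normalized counts of 10 such markers were 860 in that library, 219 and 158 in the other control libraries and 154 to 160 in the D-gal libraries. Lyz2, the lysozyme of macrophages, had 627 counts in control replicate 1 against 114 and 86 in the other controls, and Csf1r, the receptor for colony-stimulating factor 1, had 141 against 38 and 16. Over the 3 macrophage markers tested, the median log2 fold change was -1.45 with this library and -0.20 without it.

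Of the 7 genes tested, 1 passed an adjusted p of 0.05 in the quasi-likelihood test of edgeR, with p-values adjusted by Benjamini and Hochberg's method. That gene was Lpl, which fell in D-gal. Among all 13407 genes tested, 34.8% passed this threshold, 16.9% as higher and 17.8% as lower. When the log2 fold change also had to reach 1 in either direction, 0 of the 7 genes and 4.21% of all genes passed. Among the 7 genes, DESeq2 also called only Lpl. All D-gal libraries lay on one side of all control libraries in 4 of the 7 genes (Cebpa, Zfp423, Lpl and Plin2), and in 49.1% of all genes tested. With only 7 genes, these counts do not set the group apart from the rest of the table.

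**Figure D1:**
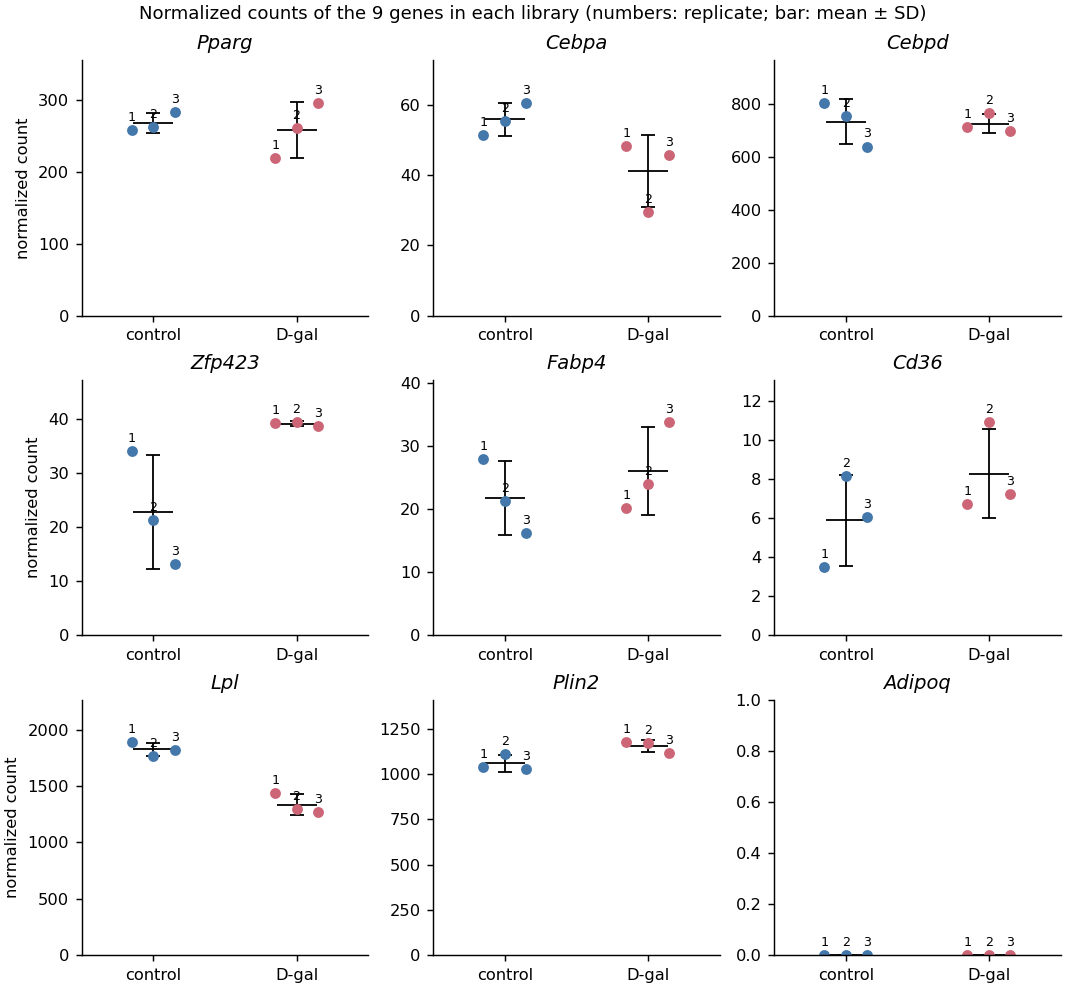
Normalized counts (vertical axes, each from its own 0) of the 9 genes in the 3 control libraries (blue) and the 3 D-gal libraries (red), with the replicate number at each point and bars for mean ± SD. Lpl shows the only change that passed the test: its D-gal libraries lie between 1268 and 1442 and its control libraries between 1771 and 1892, while Adipoq sits at 0 in all 6 libraries.

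Pparg, the nuclear receptor that directs fat cell formation, spans chr6:115360951-115490399 on the plus strand. Its counts were 297, 321 and 281 in control replicates 1 to 3 and 195, 239 and 246 in D-gal replicates 1 to 3. After normalization the means were 268 ± 13.6 in control and 259 ± 38.8 in D-gal (SD, n = 3 each), and the D-gal libraries, from 219 to 296, enclosed all control libraries. The fitted log2 fold change was -0.05 (SE 0.12), with a 95% interval from -0.32 to 0.22 and an adjusted p of 0.771. This interval corresponds to D-gal levels between 0.799 and 1.17 times those of control. An exact permutation test, two-sided, gave p = 0.8.

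Cebpa, the C/EBP factor that sustains Pparg in fat cells, spans chr7:35119293-35121928 on the plus strand, with the TATA box of its printed window just upstream. It had 59, 68 and 60 counts in control and 43, 27 and 38 in D-gal. The normalized means were 55.8 ± 4.60 and 41.2 ± 10.2 (SD, n = 3 each), and the groups did not overlap, with D-gal replicate 2 lowest. The log2 fold change of -0.44 (SE 0.22, 95% interval -0.94 to 0.06) did not pass the test, with an adjusted p of 0.153 in edgeR. The exact two-sided permutation p was 0.1, the smallest that 3 libraries against 3 can give. Cebpa overlaps Gm45091 on the opposite strand, and since no strand setting of the counting is given, reads of the 2 genes cannot be told apart.

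Cebpd, an early factor of the cascade, spans chr16:15887286-15888466 on the plus strand. Its counts were 924, 927 and 633 in control and 635, 701 and 578 in D-gal. Normalized means of 734 ± 85.3 and 725 ± 36.1 (SD, n = 3 each) differed by less than the spread between replicates, and the groups overlapped. The log2 fold change was -0.02 (SE 0.09, 95% interval -0.22 to 0.19, adjusted p of 0.899 in edgeR). Its sign changed in 5 of 14 alternative settings, so no direction is given. In the reference annotation Cebpd overlaps Spidr on the opposite strand.

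Zfp423, a zinc finger factor of preadipocyte commitment, spans chr8:87661810-87959595 on the minus strand. It had 39, 26 and 13 counts in control and 35, 36 and 32 in D-gal. After normalization control libraries held 34.0, 21.2 and 13.1 and D-gal libraries 39.3, 39.3 and 38.6, so the groups did not overlap, with nearly all the spread in control. The log2 fold change of 0.76 (SE 0.32, 95% interval 0.02 to 1.50) had an unadjusted p of 0.0447 and an adjusted p of 0.103 in edgeR, which did not pass, and the exact two-sided permutation p was 0.1. Without control replicate 1, the library with the high macrophage markers and the highest Zfp423 among controls, the log2 fold change was 1.16 and passed, with an adjusted p of 0.0239. The part of that marker signal in the difference was not tested. In the other 13 alternatives Zfp423 was not called, and the adjusted p over all 14 ran from 0.0239 to 0.221. Pooled counts of 78 in control and 103 in D-gal gave 1.36 CPM (counts scaled to the library totals, 95% exact interval 1.08 to 1.70) and 2.35 (1.92 to 2.85). Such intervals cover counting error only.

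Lpl, the lipase that frees fatty acids from circulating triglyceride for uptake by cells, spans chr8:68880491-68907448 on the plus strand. Its counts were 2171, 2170 and 1801 in control and 1285, 1191 and 1052 in D-gal. Normalized counts were 1892, 1771 and 1819 in control and 1442, 1301 and 1268 in D-gal, with means of 1827 ± 61.0 and 1337 ± 92.7 (SD, n = 3 each). Every D-gal library was below every control library, and the gap between the groups exceeded the range within either. The log2 fold change was -0.45 (SE 0.06, 95% interval -0.58 to -0.32), or 1.37-fold lower (1.25 to 1.50), with an adjusted p of 0.000637 in edgeR and an exact two-sided permutation p of 0.1. Lpl was called in each of the 14 alternatives, with log2 fold changes between -0.51 and -0.39. Of the 31-base words in its transcripts, 3.24% also occur in other annotated genes.

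Cd36, a scavenger receptor that takes up long-chain fatty acids, spans chr5:17781690-17888801 on the minus strand. It had 4, 10 and 6 counts in control and 6, 10 and 6 in D-gal, too few for the filter. The groups overlapped, with pooled levels of 0.350 CPM in control (95% exact interval 0.214 to 0.540) and 0.503 in D-gal (0.315 to 0.761). Without the filter, edgeR gave a log2 fold change of 0.47 with a 95% interval from -0.77 to 1.72 and an adjusted p of 0.597. A difference in Cd36 was not detectable at this depth.

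Fabp4, the fatty acid binding protein abundant in fat cells, spans chr3:10204088-10208576 on the minus strand. Its counts were 32, 26 and 16 in control and 18, 22 and 28 in D-gal. The normalized means of 21.8 ± 5.88 and 26.0 ± 6.98 (SD, n = 3 each) came from overlapping groups. The log2 fold change was 0.24 (SE 0.30, 95% interval -0.46 to 0.94), with an adjusted p of 0.583 in edgeR and an exact two-sided permutation p of 0.5. Leaving out single libraries moved the log2 fold change between 0.01 and 0.46, and without control replicate 1 it stayed uncalled.

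Plin2, a coat protein of lipid droplets in many cell types, spans chr4:86648386-86670060 on the minus strand, downstream of the printed window with the reverse AGGTCA. Its counts were 1191, 1366 and 1019 in control and 1050, 1075 and 930 in D-gal. Normalized counts were 1038, 1115 and 1029 in control and 1178, 1174 and 1121 in D-gal, so that the groups lay apart, with control replicate 2 and D-gal replicate 3 close to each other. The means were 1061 ± 47.1 and 1158 ± 32.1 (SD, n = 3 each). A log2 fold change of 0.13 (SE 0.05, 95% interval 0.01 to 0.24) had an unadjusted p of 0.0372 and did not pass at an adjusted p of 0.0896 in edgeR. With limma on log2(FPKM + 1) and on log2(FPKM + 0.1) it passed, with adjusted p of 0.0397 and 0.0390. Its log2 fold change was 0.150 and 0.160 in these settings, which use no TMM scaling. The median over all genes tested was 0.0266 and 0.0355 there, beside 0.0036 in the main fit. The part of this shift in the call was not tested. Of the 31-base words in Plin2 transcripts, 5.05% occur in other genes, most often in the pseudogene Gm12551.

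Adipoq, which encodes the fat cell hormone adiponectin, spans chr16:23146536-23158028 on the plus strand. It had 0 counts in each of the 6 libraries, out of 57169288 control and 43765317 D-gal counts. A count of 0 allows up to 0.0525 CPM in control and 0.0685 in D-gal, taking 3 counts over the group as the limit. No fold can be given.

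**Figure D2:**
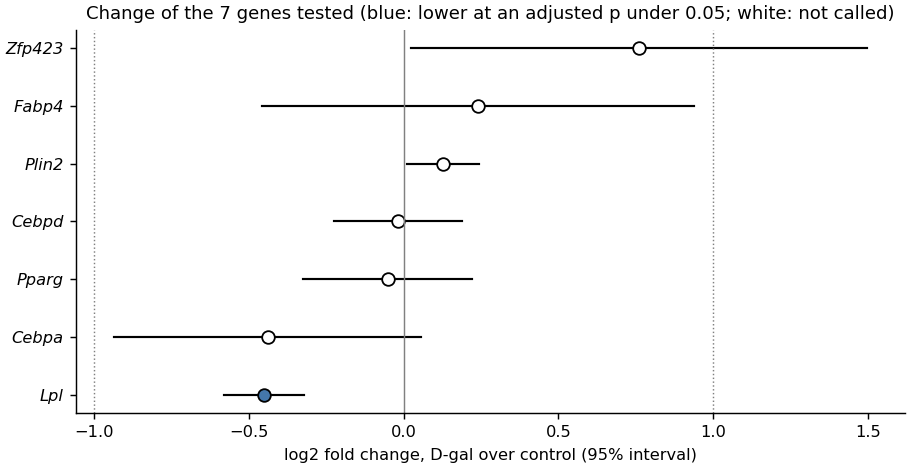
Log2 fold change of D-gal over control (horizontal axis) for the 7 genes tested, with lines for the 95% interval and dotted lines at a size of 1. Only the interval of Lpl (blue) belongs to a gene called at an adjusted p under 0.05, and the intervals of Pparg, Cebpd, Cebpa and Fabp4 include 0.

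Levels of different genes were compared per length, with the deposited FPKM (counts per kilobase of the length used for each gene, scaled to the library total). In control, Cebpd was highest at 36.6 FPKM, followed by Lpl at 14.0, Plin2 at 11.9 and Pparg at 3.80, and these neighbours did not overlap. Cebpa followed at 0.686, then Fabp4 at 0.250 and Zfp423 at 0.187, whose libraries overlapped, and Cd36 at 0.0416. In D-gal, Plin2 (13.3 FPKM) stood above Lpl (10.5), the reverse of control, and in both groups the 3 libraries of the pair lay apart. Zfp423 (0.328) and Fabp4 (0.305) overlapped again.

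This order depended on the length used. The FPKM of Cebpd divide by 1180 bases, whereas its annotated exons in GENCODE M21 cover 3746 bases, and those of Lpl by 7661 where exons cover 10478. For Cebpa and Fabp4 the FPKM divide by 4787 and 5127 bases, more than the 2636 and 4489 that these genes span. These divisors were derived from the counts and FPKM, taking the summed counts of each library as its total. On that basis, the divisor is not always a gene length. With the annotated exon length, Plin2 came first in both groups, at 17.8 on the FPKM scale in control and 19.9 in D-gal. Cebpd followed at 11.5 and 11.7, and Lpl at 10.3 and 7.69, with Cebpd and Lpl overlapping in control. The deposited position of Cebpd spans 1181 bases, so the 3746 bases belong to a longer gene model than the deposited one. Its place below Plin2 with that length is therefore not like for like. From Pparg down, the order was the same with both lengths.

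**Figure D3:**
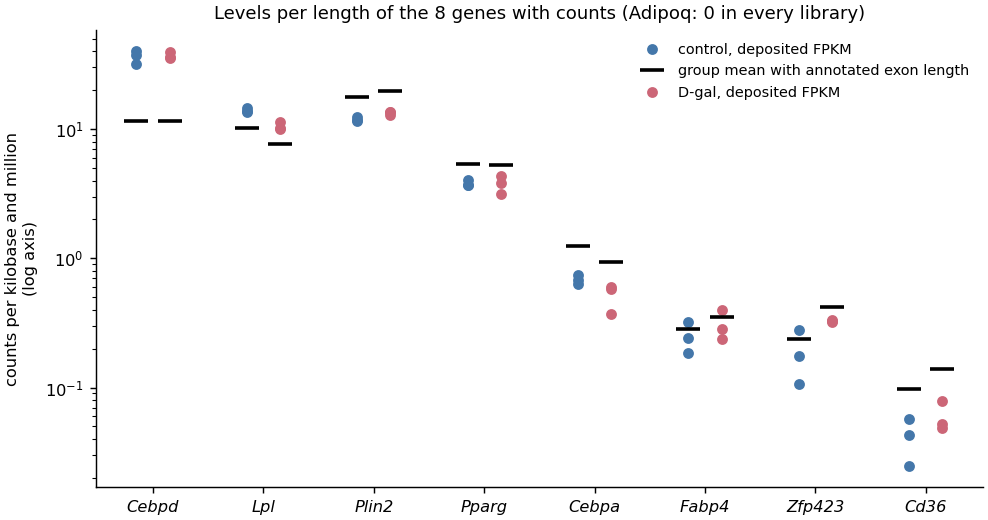
Levels per length (counts per kilobase, scaled to the library total, on a log axis) for the 8 genes with counts: points are the deposited FPKM of single libraries (blue control, red D-gal) and black bars the group means with the annotated exon length. Cebpd drops from 36.6 to 11.5 in control between the 2 lengths, whereas Plin2 rises from 11.9 to 17.8, and Fabp4, Zfp423 and Cd36 stay under 1 with either. The annotated length of Cebpd is that of a longer gene model than its deposited position.

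The wider program was described with 6 lists of pathway genes, which hold 181 genes besides the 9, of which 140 were tested. In edgeR, 27 of the 140 were higher and 34 lower in D-gal and 79 were not called, that is 43.6% called beside 34.8% of all genes tested (16.9% higher and 17.8% lower), with a median log2 fold change of -0.01 beside 0.00 over all genes tested. The difference between these shares was not tested. The counts below leave out the 9 genes and are to be read beside the same shares.

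Among regulators that promote fat cell formation, 3 of 24 genes tested were higher, 9 were lower and 12 did not pass, with a median log2 fold change of -0.08. Klf4, an early factor upstream of Cebpb, fell from 1936 ± 20.4 to 1014 ± 58.2 normalized counts (log2 fold change -0.93, SE 0.05, adjusted p 1.11e-05 in edgeR). Cebpb itself fell from 2163 ± 150 to 1525 ± 9.61 (log2 fold change -0.50, adjusted p 0.000264), though it overlaps Tmem189 on the other strand. Klf9, a further Krüppel-like factor, fell by 0.79 on the log2 scale. Ppargc1a, a coactivator of PPARs and of mitochondrial genes, rose from 44.5 ± 2.05 to 101 ± 7.74 (log2 fold change 1.18, adjusted p 0.000461).

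Among genes listed as regulators that restrain fat cell formation, 2 of 26 tested were higher, 8 were lower and 16 did not pass, with a median of -0.08. Sox9, which keeps precursors from maturing, fell from 1954 ± 73.4 to 819 ± 28.7 normalized counts (log2 fold change -1.26, SE 0.05, adjusted p 3.32e-06 in edgeR). Dlk1, the preadipocyte surface protein Pref-1, fell from 12145 ± 1752 to 5552 ± 1009 (log2 fold change -1.13, adjusted p 0.000663). Nr2f2 and Tcf7l1 fell by 0.62 and 0.52 on the log2 scale, and each overlaps a gene on the other strand. Both were placed in this list from general knowledge, and a restraining role is not taken as settled for them.

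Of 29 genes typical of mature fat cells, 10 had 0 counts in every library and 11 were tested, of which 3 were higher, 2 were lower and 6 did not pass. Scd1, the desaturase that makes monounsaturated fatty acids, rose by a log2 fold change of 0.21 (adjusted p 0.00101 in edgeR). Of its words, 8.14% occur in other genes, most often in Scd2. Dgat1, the enzyme of the last step of triglyceride synthesis, rose from 383 ± 19.3 to 488 ± 28.9 (log2 fold change 0.35, adjusted p 0.00805). Lipe, hormone-sensitive lipase, rose from 134 ± 17.1 to 230 ± 5.54 (log2 fold change 0.78, adjusted p 0.00131) and overlaps 4732471J01Rik on the other strand. Plin4, a droplet coat protein, fell from 341 ± 18.1 to 138 ± 8.72 (log2 fold change -1.30, adjusted p 4.27e-05) and overlaps Hdgfl2.

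Among genes of fatty acid uptake, binding and activation, 6 of 26 tested were higher, 5 were lower and 15 did not pass. Acsbg1, an acyl-CoA synthetase, had 38, 48 and 34 counts in control and 7, 9 and 6 in D-gal, and its log2 fold change was -2.08 (SE 0.26, adjusted p 0.000618 in edgeR). Fabp5, a binding protein of the same family as Fabp4, rose from 929 ± 45.0 to 1294 ± 49.3 normalized counts (log2 fold change 0.48, adjusted p 0.000389), with 9.21% of its words shared with other genes. Acbd5, an acyl-CoA binding protein of peroxisomes, rose by 0.46 on the log2 scale. Angptl4, a secreted inhibitor of lipoprotein lipase, fell from 1392 ± 41.5 to 1065 ± 40.1 (log2 fold change -0.39, adjusted p 0.000588), so that the transcripts of the lipase and of its inhibitor were both lower.

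Among lipid droplet and lipolysis genes, 8 of 28 tested were higher, 3 were lower and 17 did not pass, with a median of 0.07. Besides Lipe and Plin4, the genes with the smallest p were Soat1, which esterifies cholesterol, and Lpin2, a phosphatidate phosphatase. Soat1 fell from 3573 ± 104 to 2641 ± 91.3 normalized counts (log2 fold change -0.44, adjusted p 0.000136 in edgeR). Lpin2 rose from 804 ± 98.6 to 1200 ± 50.1 (log2 fold change 0.58, adjusted p 0.00146).

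Among genes of fatty acid oxidation and PPAR targets, 8 of 35 tested were higher, 9 were lower and 18 did not pass, with a median of 0.00. Cpt1a, which admits long-chain fatty acids to mitochondria, fell from 3487 ± 78.4 to 2279 ± 109 normalized counts (log2 fold change -0.61, adjusted p 4.10e-05 in edgeR). Pdk4, a kinase that restrains the use of glucose, fell from 808 ± 26.9 to 487 ± 33.1 (log2 fold change -0.73, adjusted p 0.000136). Etfdh, which passes electrons from fatty acid oxidation to the respiratory chain, rose from 973 ± 40.4 to 1557 ± 103. Its log2 fold change was 0.68 (adjusted p 0.000120 in edgeR). However, it overlaps 4930579G24Rik on the opposite strand, and 4.77% of its words occur in other genes. The genes named from each list were chosen for their small p and do not stand for their lists.

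Without control replicate 1, edgeR called 3711 of the 13596 genes tested, 1782 of them higher. The shares given above belong to the fit with all 6 libraries. In this setting, 3 of 24 genes tested were higher and 8 lower in the promoting list, and 3 and 8 of 26 in the restraining list. The mature list had 3 higher and 2 lower of 12, and the uptake list 5 and 4 of 27. The droplet list had 7 higher and 3 lower of 28, and the oxidation list 6 and 8 of 35.

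**Figure D4:**
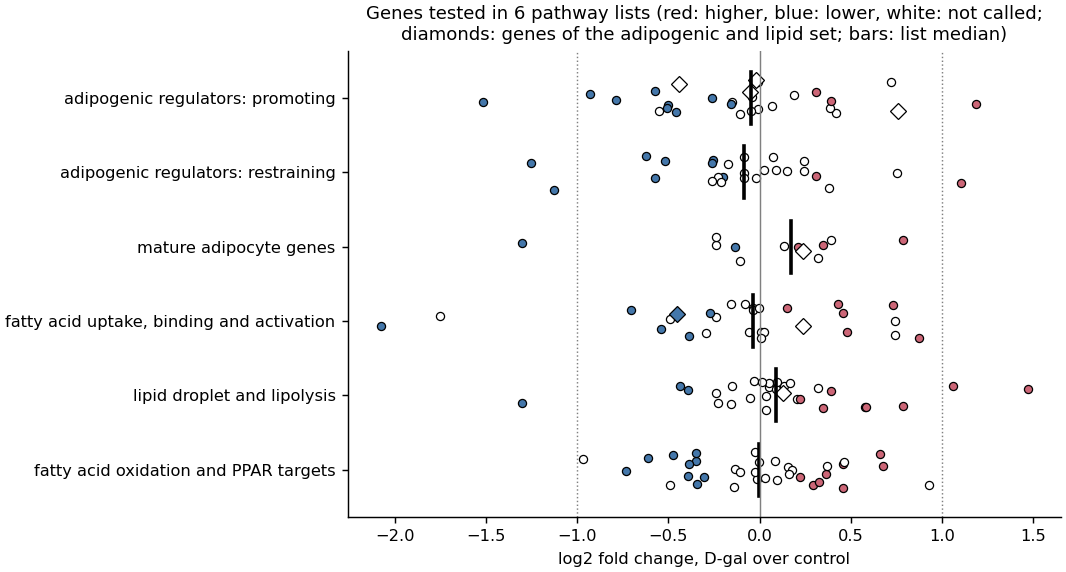
Log2 fold change of D-gal over control (horizontal axis) for each gene tested in the 6 lists, with called genes in red (higher) or blue (lower), uncalled genes in white, diamonds for genes of the 9-gene set and black bars for list medians with those genes included. The medians lie between -0.08 and 0.17, and called genes stand on both sides of 0 in every list.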

How the data were processed

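RNA-seq of 3 control and 3 D-gal libraries was analysed. Groups came from the sample labels, and dose and duration from the study's methods. The deposited table gives a count of reads per gene and library, which the authors left without normalization, and FPKM. The FPKM are scaled to the library total and to a length for each gene, which was not always a gene length. The submitters' processing notes name HISAT2 (version 2.0.4), and the methods name FastQC and Trimmomatic. The counting tool and its strand setting are not given in the sources used here. The methods name a small RNA kit and the labels an RNA-seq kit, and the labels were followed.

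In R 4.3.3, counts were tested by edgeR (version 4.0.16) without covariates: TMM scaling, the filterByExpr filter, quasi-likelihood tests, and Benjamini-Hochberg adjustment over all 13407 genes tested. Standard errors were taken from the log2 fold change and F. Permutation tests were exact and two-sided, and n was 3 per group. Each pair of replicates had a chi-square of 6.00 to 9.42 per degree of freedom, beyond sampling noise. Gene positions came from the deposited table, overlaps and exon lengths from GENCODE M21 (GRCm38), and promoters from RefSeq. The functions were tested on simulated data. The 9 genes and all lists were chosen with earlier results of these data known, and lists were written from general knowledge. Named from each list were up to 4 called genes with the smallest p, all 9 genes, the defining markers, and the 2 genes most like a called one, a comparison that is not reported here. The macrophage marker Itgam matched 2 identifiers and was left out. Alternatives were DESeq2 (version 1.42.0), RLE size factors, no filter, a minimum of 10 counts per library, a block for the replicate number, each library left out, limma (version 3.58.1) on log2(FPKM + 1) and log2(FPKM + 0.1), an adjusted p under 0.01 and, chosen after seeing the data, thinning of all libraries to the smallest total (seed 7).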

Additional observations from a re-analysis of the deposited data

How the results depend on the processing

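Lpl kept its direction and its call in all 14 alternatives in which single genes were refitted, with adjusted p from 5.95e-09 to 0.00339, and so did the 21 genes named from the lists, except that Acsbg1 was not tested with at least 10 counts in every library. The number of the 9 genes called was 1 to 2 when single libraries were left out, 2 of them without control replicate 1 (Zfp423 besides Lpl), and 2 with limma on log2(FPKM + 1) and on log2(FPKM + 0.1) (Plin2 besides Lpl). With a log2 fold change of at least 1 it was 0 to 1, being 1 without control replicate 1. Cebpd changed sign, with log2 fold changes from -0.108 to 0.0529 when single libraries were left out (0.0529 without control replicate 1, 0.00494 without control replicate 2 and 0.00883 without D-gal replicate 3) and of 0.0220 and 0.0227 with the limma settings, and Pparg ranged from -0.160 to 0.0553, the latter without D-gal replicate 1. None of these Cebpd and Pparg values was called. With the limma settings, which use no TMM scaling, the median over all genes tested was 0.0266 and 0.0355, above both Cebpd values. Over all genes, 2729 were called at an adjusted p under 0.01 in place of 4661, and limma on log2(FPKM + 1), whose pseudocount shrinks the change of low genes, called 120 in place of 564 at a log2 fold change of at least 1. Plin2 moved from rank 3 to rank 1 of the control levels with the annotated exon length. For Cebpd that length belongs to a longer gene model than its deposited position. Libraries of the same replicate number did not deviate together over all genes (correlations -0.01, -0.01 and 0.03). With 3 libraries per group, this cannot show whether they shared a culture or batch that moved few genes. With the replicate block, 3982 genes and 1 of the 9 were called, and not every library correlated best with its own number. Depth limits Cd36, Fabp4, Zfp423 and Adipoq, each with under 40 counts in every library.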

Other observations

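Low-count fat cell genes outside the tests, chosen after their values were seen, differed in pattern. Retn, which encodes resistin, had 10, 10 and 5 counts in control and 0, 2 and 0 in D-gal. Slc2a4, the insulin-responsive glucose transporter, had 0, 3 and 0 counts in control and 11, 14 and 4 in D-gal. Both stayed below the filter on low counts, so no test is given.

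Among the marker lists of other cell types, the endothelial list summed to 132 to 150 normalized counts in control and 104 to 107 in D-gal, and of its 4 markers tested 1 was lower in edgeR, the angiopoietin receptor Tek (log2 fold change -1.02, adjusted p 0.0342), which was not called without control replicate 1. The 3 macrophage markers tested, Csf1r, Cd68 and Lyz2, had log2 fold changes of -1.45, -0.61 and -1.95 and adjusted p of 0.160, 0.227 and 0.0751, and their median moved from -1.45 to -0.20 without control replicate 1. The myogenic list summed to 131 to 133 in control and 104 to 111 in D-gal. Of its 3 markers tested, 1 was lower, Des, which encodes the intermediate filament desmin, with a log2 fold change of -0.78. Calls thus made up 25% of the endothelial and 33.3% of the myogenic markers tested, beside 34.8% of all genes tested. With so few markers, these calls do not set the lists apart from the rest of the table.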
